A study of Homo sapiens with 6 samples.

Results

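The genes described here encode the core of the TRAIL and FAS death receptor pathway, and were chosen by name: the ligand TNFSF10 (TRAIL), the receptors TNFRSF10A, TNFRSF10B, TNFRSF10C, TNFRSF10D, FAS and TNFRSF1A, the adaptor FADD, the protease CASP8 and its relative CFLAR. All array probes that carry 1 of these 10 names were taken, which gave 16 of the 34127 gene probes on the array and 10 of its 24044 gene names. They were measured in 2 isogenic lines made from xenografts of T47Dco, a human breast cancer cell line. pLUM (pure luminal) cells are ER+PR+CK5- and CLD3+CD49f-, came from a tumor of an estradiol (E) treated mouse, and received 1 nM E for 72 h. pLB (pure luminobasal) cells are ER-PR-CK5+ and CLD3-CD49f+, came from a tumor of a mouse given E plus progesterone, and were under E withdrawal. Each line stands for the cells of 1 tumor, and line and hormone coincided on every array, so that the effects of line and hormone cannot be told apart. Both lines were fixed, stained for CK5 and sorted before RNA extraction, and it is not given in the labels whether CK5+ or CK5- cells were put on the arrays. Of 3 arrays per line, the 3 of pLUM and replicate 1 of pLB shared a slide, and the other 2 pLB arrays were on a second slide.

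Death receptors are cell surface proteins with an intracellular death domain. When TRAIL binds TNFRSF10A or TNFRSF10B, or FAS ligand binds FAS, the adaptor FADD joins the receptor and brings in procaspase-8, which is activated there and cleaves downstream caspases and BID. CFLAR, also named cFLIP, is a catalytically inactive relative of caspase-8 that binds in the same complex and limits its activation. TNFRSF10C and TNFRSF10D bind TRAIL without a functional death domain and are known as decoy receptors. TNFRSF1A, the main TNF receptor, reaches the same caspase through TRADD.

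Values are log2 signals after division by the 75th percentile of the same array, which was 449 to 869 intensity units. They may be compared between arrays for 1 probe but not between probes. A probe was tested if it was well above background on at least 3 of the 6 arrays, and a difference was called at 2-fold and an adjusted p under 0.05 (limma, Benjamini-Hochberg over all 23105 tested probes). Where a gene had several probes, the one with the highest mean signal represented it. Of the 6 arrays, pLB replicate 3 had the lowest 75th percentile (449) and the fewest probes well above background (21285). Its dimmest signal that counted as well above background was also the highest of the arrays, at -4.75. The part of this in the results below was not tested.

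All 8 pLB markers examined, among them KRT5, EGFR and TP63, were called higher in pLB. All 6 pLUM markers, among them ESR1, PGR and GATA3, were called lower. For these markers the paper already gives mRNA folds from its gene profiling of the lines. They include the genes of the stained protein and of the surface proteins by which the lines were sorted. Markers that the paper lists with the smallest folds in either direction were left out. The calls are therefore no independent check of the lines. Of markers of other cell types, the endothelial genes PECAM1 and TEK and the fibroblast genes COL3A1, PDGFRB, DCN and LUM were well above background on no array. Of 6 leukocyte markers, 4, among them PTPRC, CD14 and CD68, were measured well above background by at least 3 arrays, and the sum of the 6 signals, relative to the 75th percentile, was 0.506 to 0.621 in pLUM and 0.433 to 0.560 in pLB. The corresponding sums were 0.0709 to 0.107 and 0.0922 to 0.204 for 4 endothelial markers and 0.767 to 0.966 and 0.786 to 1.14 for 6 fibroblast markers. On representative probes, CD68 (2.87-fold), VWF (at least 1.80-fold) and COL1A2 (at least 11.5-fold) were called higher in pLB, the last 2 of them well above background on no pLUM array, and none was called lower. The bound of VWF is under 2-fold, so its call rests on a fitted value that uses pLUM signals not well above background. Another PTPRC probe was called lower (-1.20, adjusted p = 0.0045). The part of these signals in the results below was not tested. Pearson's r across probes, which are not independent replicates, was at least 0.972 between arrays of the same line.

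In pLB, TNFSF10, TNFRSF10A, TNFRSF1A, FADD and CASP8 were called higher than in pLUM, and CFLAR was called lower. FAS, TNFRSF10B and TNFRSF10C were tested but not called, and TNFRSF10D was well above background on no array. Thus 5 of the 9 tested genes were higher and 1 was lower, where 23.0% of all 16774 tested genes were called higher and 23.5% lower. Counted by probe, 14 of 16 were tested, 7 were called higher and 2 lower, where 21.9% of all tested probes were higher and 23.7% lower. The 7 include a CASP8 probe that was well above background in pLB only. The signals of the lines did not overlap for 11 of the 14 probes, which compares with 68.1% of all tested probes. The median log2 fold change of the 9 genes was 1.02, and that of all tested genes was 0.03. In such bulk RNA, fewer cells that express a gene and less RNA per cell cannot be told apart.

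**Figure D1:**
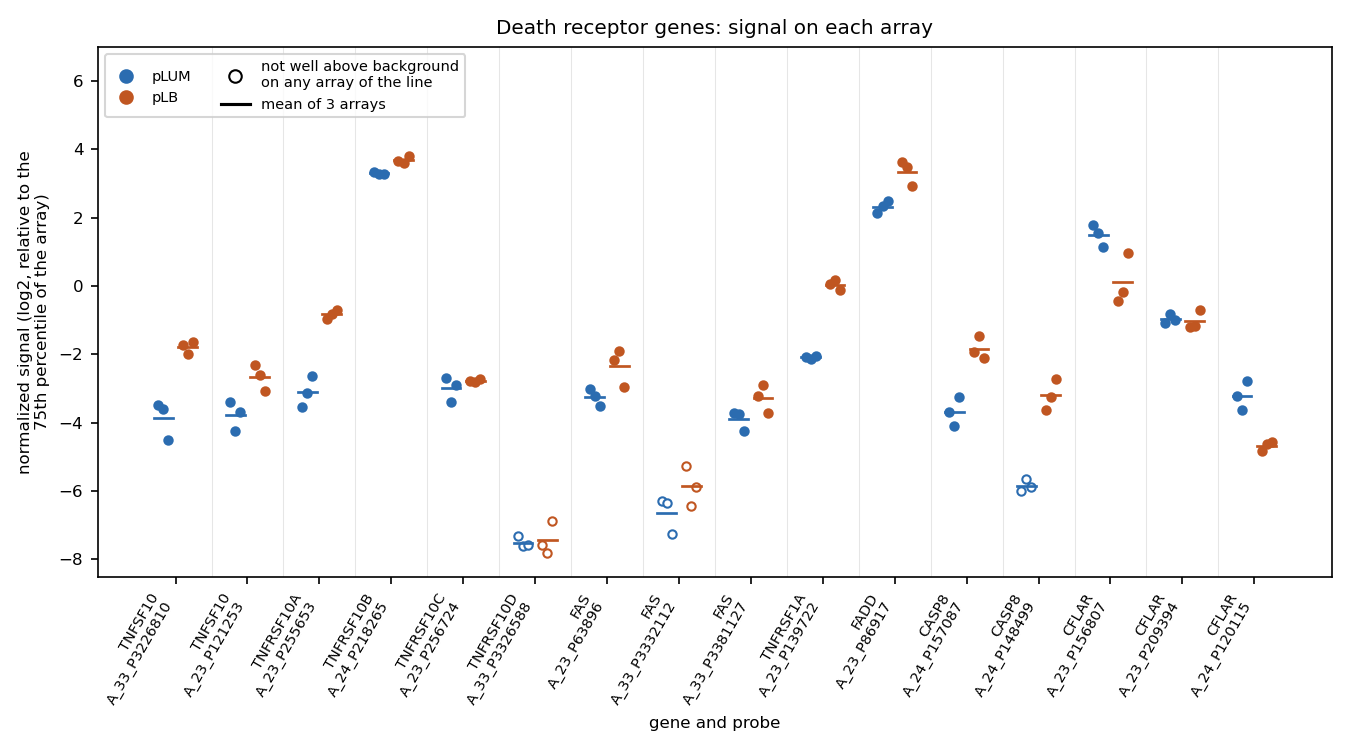
Normalized log2 signal of the 16 probes of the death receptor genes on each of the 3 pLUM and 3 pLB arrays, with a line at the mean of each group. Open symbols mark a line none of whose arrays measured the probe well above background. TNFRSF10A, TNFRSF1A and CASP8 were separated between lines by more than the spread of either line, whereas TNFRSF10C overlapped.

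The ligand TNFSF10 was measured by a pair of probes that lie 360 bases apart on chromosome 3. Since they gave different sizes of change, their first 30 of 60 bases are shown, as printed on the array and with hg19 positions chr3:172223866-172223925 and chr3:172224226-172224285.
A_23_P121253: gcaacaatccatctctcaagtagtgtatca
A_33_P3226810: ctaactgacctggaaagaaaaagcaataac
The brighter probe, A_33_P3226810, had log2 signals of -3.49, -3.59 and -4.52 in pLUM and of -1.73, -1.97 and -1.63 in pLB. All 3 pLB arrays thus lay above all 3 pLUM arrays. The means were -3.87 ± 0.57 and -1.78 ± 0.17 (SD, n = 3 each), a difference of 2.09 ± 0.29 (SE), or 4.24-fold (adjusted p = 0.00063 across all probes by limma). A_23_P121253, which was printed at 10 spots per array, gave -3.38, -4.23 and -3.68 in pLUM and -2.31, -2.60 and -3.06 in pLB. The lines did not overlap on this probe either, and its difference was 1.11 ± 0.29, or 2.16-fold (adjusted p = 0.011 by limma). Its call was lost without pLUM replicate 2 (0.88) and without pLB replicate 1 (0.94). Both probes were dim, at 24.7 to 46.6 intensity units in pLUM and 54.4 to 262 in pLB, and neither passed the thresholds with normexp background correction, which gave 0.87 and 0.25 on the log2 scale for A_33_P3226810 and A_23_P121253.

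The promoter of TNFSF10 held the core of the interferon-stimulated response element, to which interferon-activated factors bind. This core is GAAA, a spacer of any 2 bases and GAAA again, and was searched on both strands in RefSeq windows (GRCh38.p14) from 250 bases before to 50 after each start. It stood in 3.57% of all 35116 windows, and in 2 of the 13 windows listed for 6 of the genes, 1 of TNFSF10 and 1 of CASP8. The 6 genes were TNFSF10, FAS, FADD, CASP8, CFLAR and TNFRSF1A. FADD and TNFRSF1A were also called higher but their windows lacked the core, as did the other CASP8 windows. The 2 windows with the core are printed up to 20 bases after the start, 5′ to 3′ along the gene. The motif lies on the opposite strand and is in capitals. The printed windows are chr3:172523411-172523680, minus strand, and chr2:201233213-201233482, plus strand.
TNFSF10: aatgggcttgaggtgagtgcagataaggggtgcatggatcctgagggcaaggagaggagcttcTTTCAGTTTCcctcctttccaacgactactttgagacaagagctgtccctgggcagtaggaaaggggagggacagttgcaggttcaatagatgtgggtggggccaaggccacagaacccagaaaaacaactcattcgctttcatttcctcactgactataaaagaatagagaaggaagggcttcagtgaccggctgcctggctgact
CASP8: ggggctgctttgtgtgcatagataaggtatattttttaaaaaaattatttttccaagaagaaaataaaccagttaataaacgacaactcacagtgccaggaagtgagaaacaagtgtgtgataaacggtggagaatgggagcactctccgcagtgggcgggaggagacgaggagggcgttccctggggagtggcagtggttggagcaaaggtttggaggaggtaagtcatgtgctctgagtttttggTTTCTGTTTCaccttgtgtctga
The motif began 187 bases before the start of TNFSF10 and 3 bases before that of CASP8, so that it spans the latter start. A second motif, TGANTCA, which AP-1 factors bind, was in 7.71% of all windows and in 5 of the 13, those of CFLAR, FAS, FADD and 2 of CASP8. TTCNNNGAA, a STAT site, was in 7.66% of all windows and in 1 of the 13, the CASP8 window shown. The palindromic estrogen response element was in 0.057% of all windows and in none of the 13. The 4 motifs were chosen after the expression values were known, and a match describes letters in a window, not binding.

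The 4 TRAIL receptor genes lie together on chromosome 8, where their probes span 171.5 kb (hg19), and they differed between lines to unequal extents. TNFRSF10A (probe A_23_P255653, chr8:23049253-23049312), which encodes the death receptor DR4, had log2 signals of -3.54, -3.12 and -2.63 in pLUM and of -0.96, -0.82 and -0.70 in pLB. Every pLB array was thus above every pLUM array, and the 3 pLB arrays were closer together. The means were -3.10 ± 0.46 and -0.83 ± 0.13 (SD, n = 3 each), and the difference of 2.27 ± 0.25 (SE), or 4.81-fold, was the largest among the 9 representative probes (adjusted p = 0.00019 by limma). It remained called under every alternative tried, but was 1.24 on the log2 scale with normexp background correction. With that correction TNFRSF1A differed more, by 1.55, so the rank depended on the processing. In pLUM the TNFRSF10A probe was dim, at 40.9 to 91.6 intensity units.

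TNFRSF10B (A_24_P218265, chr8:22877776-22877835), which encodes the second TRAIL death receptor DR5, was bright in both lines. Its log2 signals were 3.34, 3.28 and 3.28 in pLUM and 3.67, 3.59 and 3.80 in pLB. The lines did not overlap, but the difference was 0.39 ± 0.15 (SE), or 1.31-fold, and was not called (adjusted p = 0.058 by limma). On the same arrays, TNFRSF10A relative to TNFRSF10B was higher in pLB by 1.88 on the log2 scale, or 3.68-fold, with -6.40 ± 0.48 in pLUM and -4.52 ± 0.10 in pLB (SD, n = 3 each). The two-sided exact permutation p was 0.1, the smallest that 3 arrays against 3 allow, and stayed 0.1 after adjustment over 2 such pairs. With normexp background correction the difference was 0.74. The level of one receptor is not set against that of the other.

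Of the decoy receptors, TNFRSF10C (A_23_P256724, chr8:22974483-22974542), which is anchored to the membrane by a lipid, gave -2.69, -3.39 and -2.88 in pLUM and -2.77, -2.81 and -2.73 in pLB. The pLB arrays lay within the range of the pLUM arrays, and the difference was 0.22 ± 0.21 (SE; adjusted p = 0.39 by limma). TNFRSF10D (A_33_P3326588, chr8:22993127-22993186) had 2.86 to 4.53 intensity units and was well above background on none of the 6 arrays, so that no fold is given. Its transcript was therefore not detectable with this probe in either line.

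FAS, the receptor for FAS ligand, was represented on chromosome 10 by 3 probes, of which 2 were tested. The brighter, A_23_P63896 (chr10:90774545-90774604), printed at 10 spots, gave -3.02, -3.22 and -3.51 in pLUM and -2.17, -1.89 and -2.94 in pLB. pLB replicate 3 was close to the highest pLUM array, and the difference of 0.92 ± 0.29 (SE), or 1.89-fold, had an adjusted p of 0.028 by limma but was under 2-fold. It was 0.27 with normexp background correction. It passed both thresholds without pLB replicate 3 (1.22, adjusted p = 0.0023) and without pLUM replicate 1 (1.03, adjusted p = 0.042). A_33_P3381127 shares 32 bases with it, so is not independent of it, and differed by 0.61 ± 0.26 (adjusted p = 0.079). The third probe, A_33_P3332112, was well above background on no array.

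TNFRSF1A (A_23_P139722, chr12:6438064-6438123, 10 spots), the main receptor of TNF, had the smallest adjusted p of the 14 probes tested. Its log2 signals were -2.06, -2.13 and -2.05 in pLUM and 0.07, 0.17 and -0.10 in pLB. Arrays of either line differed little from each other and the lines were widely separated. The difference was 2.13 ± 0.16 (SE), or 4.37-fold (adjusted p = 2.7e-05 by limma), and with an array left out it ranged from 2.06 to 2.20. With normexp background correction it was 1.55 and still called.

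FADD (A_23_P86917, chr11:70053305-70053364), the adaptor shared by FAS and the TRAIL receptors, gave 2.13, 2.36 and 2.49 in pLUM and 3.64, 3.48 and 2.93 in pLB. The lines did not overlap, but pLB replicate 3 was nearest to pLUM. The difference of 1.02 ± 0.23 (SE), or 2.03-fold (adjusted p = 0.0061 by limma), was just past the 2-fold threshold. It was under 2-fold, and so not called, without pLB replicate 1 (0.88), without pLB replicate 2 (0.96) and without pLUM replicate 1 (0.92), and also with quantile normalization (0.81) and with scaling to all spike-in spots (0.94).

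CASP8, the initiator protease of the pathway, and CFLAR, its inhibitory relative, are close neighbours on chromosome 2, where their probes span 151.2 kb in hg19. They were called in opposite directions. The first 30 bases of 4 of their 5 probes are given, because the probes of CFLAR disagreed.
CASP8 A_24_P148499: tttcagaagaagtgagcagatcagaattga
CASP8 A_24_P157087: aatccagctatgaatatagagggcttatga
CFLAR A_23_P209394: aatctggttgccccagatcaactggattta
CFLAR A_24_P120115: gaaattcttgcatctcagtatgcatggtat
For CASP8, the brighter probe A_24_P157087 (chr2:202151838-202151897) gave -3.68, -4.10 and -3.23 in pLUM and -1.92, -1.47 and -2.12 in pLB. All pLB arrays were above all pLUM arrays, by a mean difference of 1.84 ± 0.28 (SE), or 3.57-fold (adjusted p = 0.00091 by limma). A_24_P148499 (chr2:202136256-202136315) lies 15582 bases upstream and was well above background on all 3 pLB arrays, at -3.62, -3.25 and -2.73, but on no pLUM array. It was therefore at least 4.53-fold higher in pLB. For this bound, each pLUM array was given either this probe's signal or the dimmest signal that counted as well above background, whichever was higher. The mean of pLB was set against these values. The adjusted p of 9.4e-05 by limma belongs to the fitted difference of 2.64, which uses the pLUM signals as measured. The pLUM signals of these probes were 7.40 to 60.2 intensity units, and neither call was kept with normexp background correction, which gave 0.74 and 0.33 on the log2 scale.

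For CFLAR, the representative probe A_23_P156807 (chr2:202030660-202030717, listed for NM_001202519) gave 1.78, 1.55 and 1.16 in pLUM and -0.44, -0.17 and 0.96 in pLB. The lines did not overlap, but pLB replicate 3 was near the lowest pLUM array, and pLB was the more variable line (SD 0.74 against 0.31, n = 3 each). The difference was -1.38 ± 0.38 (SE), a signal 2.60-fold lower in pLB (adjusted p = 0.015 by limma). The call was lost without pLUM replicate 1 (-1.23, adjusted p = 0.052) and without pLB replicate 2 (-1.23, adjusted p = 0.053).

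A_24_P120115 (chr2:202025198-202025257, listed for NM_003879) gave -3.22, -3.62 and -2.77 in pLUM and -4.82, -4.62 and -4.57 in pLB. Again no array of one line reached the other, and the difference was -1.46 ± 0.24 (SE), or 2.76-fold lower in pLB (adjusted p = 0.0014 by limma). With normexp it was -0.88 and not called. The third probe, A_23_P209394 (chr2:202000731-202000790), is listed for another transcript, NM_001127184, and lies 24467 bases before A_24_P120115. It gave -1.09, -0.83 and -0.99 in pLUM and -1.20, -1.17 and -0.69 in pLB, which overlap, and differed by -0.05 ± 0.20 (adjusted p = 0.84). With the mean of the 3 probes in place of the representative one, CFLAR differed by -0.96 (adjusted p = 0.0053) and was not called at 2-fold.

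**Figure D2:**
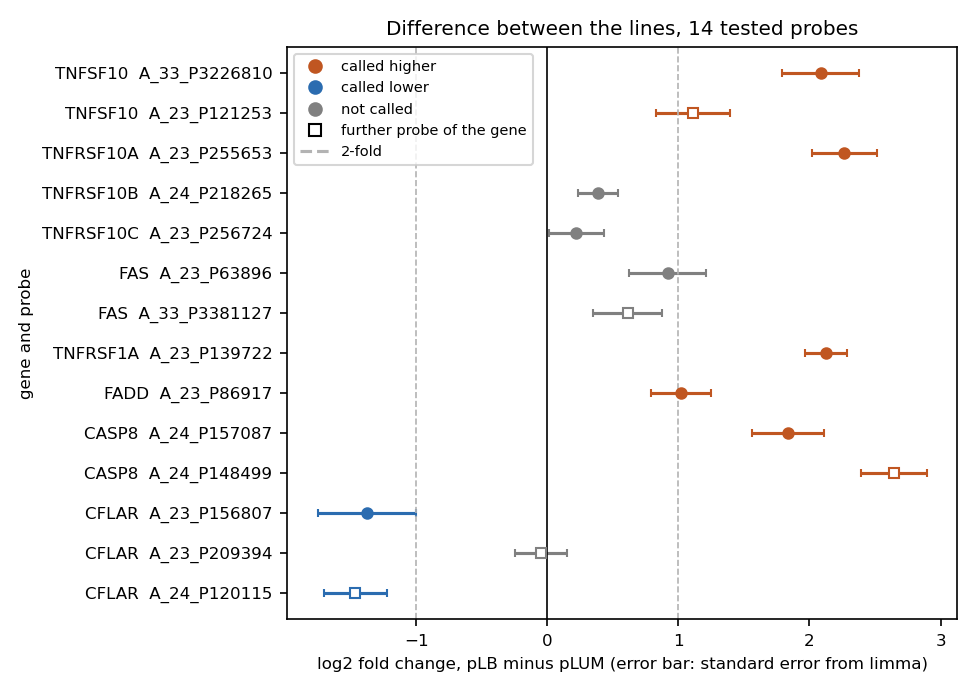
Log2 fold change of pLB over pLUM with its standard error from limma for the 14 tested probes, and dashed lines at 2-fold. Filled circles mark the probe that represents a gene and open squares its further probes. The 7 probes called higher belong to TNFSF10, TNFRSF10A, TNFRSF1A, FADD and CASP8, and the 2 called lower to CFLAR. For CASP8 A_24_P148499 the fitted value is shown, and its bound of 4.53-fold is the firmer value.

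The change of CASP8 relative to CFLAR was followed array by array with the representative probes. CASP8 minus CFLAR was -5.46, -5.65 and -4.39 in pLUM and -1.48, -1.30 and -3.08 in pLB. The 3 pLB arrays were above the 3 pLUM arrays, and pLB replicate 3 was the lowest of its line. The difference was 3.21 on the log2 scale, or 9.29-fold, with SDs of 0.68 in pLUM and 0.98 in pLB (n = 3 each). It was 1.98 with normexp background correction, and 2.89 to 3.78 with an array left out, lowest without pLB replicate 2 and highest without pLB replicate 3. The two-sided exact permutation p was 0.1, the smallest possible here, and 0.1 after adjustment over 2 pairs. As neither probe overlapped between lines and they moved in opposite directions, this p followed from the values above and adds nothing to them. The other CFLAR probes do not enter here, and of these A_24_P120115 was also called lower but A_23_P209394 was not called.

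Within slide 1, where pLB replicate 1 can be set against the 3 pLUM arrays, the directions of the genes named next were kept. The representative probes of these genes did not overlap between lines. This outcome was thus fixed by the values above and is no check on the slide. With slide as a block, which gives that same contrast and rests on 1 pLB array, the differences were 2.13 for TNFSF10 and for TNFRSF10A, 2.15 for TNFRSF1A, 1.31 for FADD, 1.75 for CASP8, -1.93 for CFLAR and 1.08 for FAS. They are given as values without a test, since the pLB side has no replicate.

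**Figure D3:**
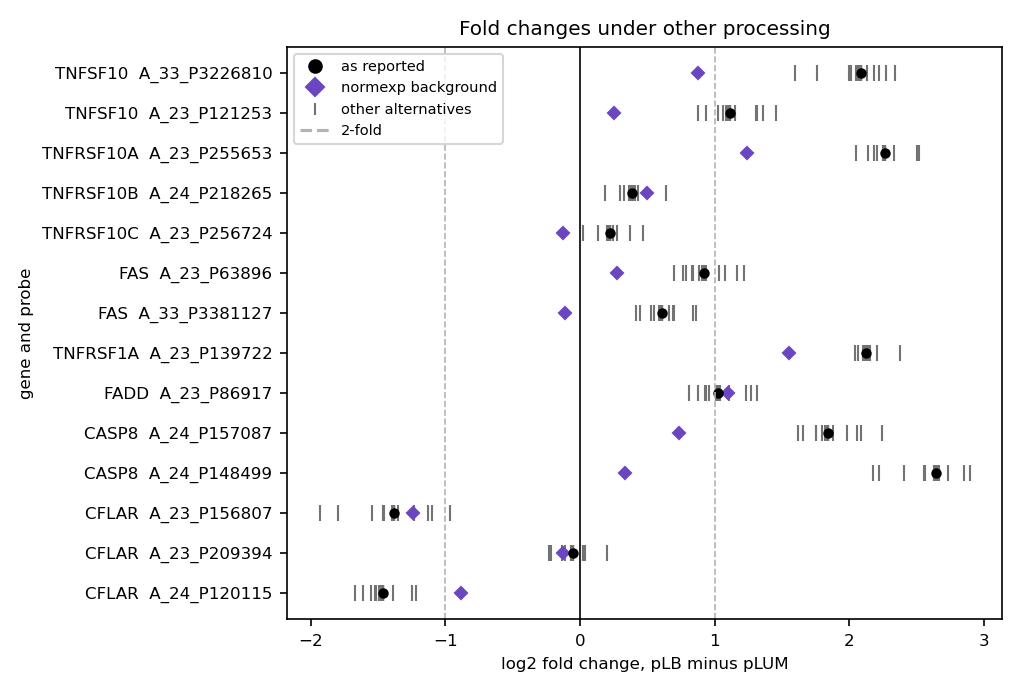
Log2 fold change of pLB over pLUM for the 14 tested probes as reported (black circles), with normexp background correction (diamonds) and under the other scalings, filters, blocks and left-out arrays (ticks). Dashed lines mark 2-fold. With normexp the dim probes of TNFSF10 and CASP8 came as low as 0.25 and 0.33, TNFRSF10A moved from 2.27 to 1.24 and FAS A_33_P3381127 from 0.61 to -0.11, whereas FADD and the brighter CFLAR probe moved little.

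Genes that adjoin CASP8 and CFLAR did not move in one direction. CASP10, a related initiator caspase that lies between them, was not called on its representative probe (-0.48 ± 0.28, adjusted p = 0.17 by limma). Another CASP10 probe, A_33_P3504659, was well above background in pLUM only. Its fitted difference was called lower in pLB (adjusted p = 0.00016 by limma), but its bound of at least 1.65-fold is under 2-fold. Within 500 kb of either gene, 13 other genes were tested, of which 3 were called higher (BZW1, NDUFB3 and TMEM237) and 4 lower (CLK1, FAM126B, TRAK2 and STRADB). Calls in both directions are also common over all tested genes, at 23.0% higher and 23.5% lower. Around the TRAIL receptors, 18 other genes were tested, with 5 higher and 2 lower. Among them RHOBTB2, whose probe starts 0.34 kb from that of TNFRSF10B, was 10.7-fold higher in pLB (3.42 ± 0.22, adjusted p = 1.4e-05), while TNFRSF10B itself was not called. Around TNFRSF1A, 8 of 24 other genes were higher and 4 lower, and around FAS 4 of 9 were higher and 1 lower. Around FADD, 0 of 6 were higher and 2 lower, and around TNFSF10 0 of 4 were higher and 1 lower. The neighbours were examined after the values of the members were known.

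**Figure D4:**
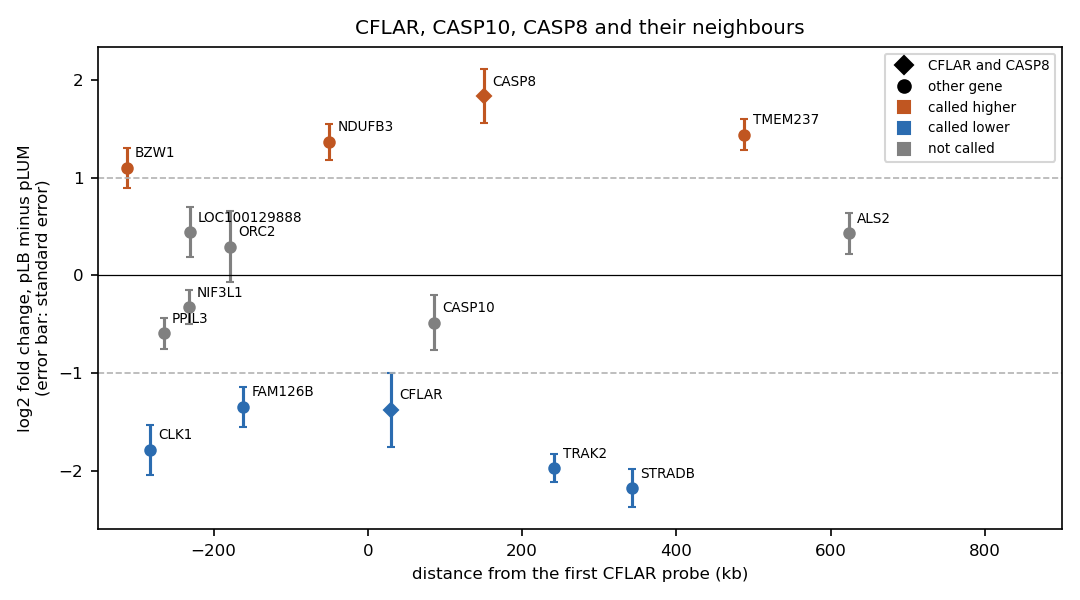
Log2 fold change of pLB over pLUM with its standard error for CFLAR, CASP8 (diamonds) and the 13 genes tested within 500 kb (circles), by the distance of their probes from the first CFLAR probe. Calls in both directions were interspersed, with CFLAR lower, the representative CASP10 probe not called and CASP8 higher along 151.2 kb.

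Other components of the pathway were taken as 6 lists of 64 genes in all, of which 59 were tested. Of these, 15 were called higher and 12 lower in pLB and 32 were not called, beside 23.0% and 23.5% of all tested genes, with a median log2 fold change of 0.0016. FASLG, LTA, TNFSF14, EDAR and RIPK3 were not tested because their probes were well above background on too few arrays.

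Of 4 tested death ligands of the TNF family, 2 were higher and 2 lower. TNFSF15, also named TL1A, was well above background on no pLUM array and was at least 12.8-fold higher in pLB (adjusted p of the fitted difference = 1.8e-05 by limma). LTB, a subunit of lymphotoxin, was 5.20-fold higher. TNF, which no pLB array measured well above background, was at least 13.4-fold lower in pLB, and TNFSF12 (TWEAK) was 3.17-fold lower. Thus TNF and its receptor TNFRSF1A were called in opposite directions.

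Of 10 other tested TNF receptors, 6 were higher and 3 lower, with a median log2 fold change of 2.01. NGFR, the low-affinity neurotrophin receptor with a death domain, was at least 71.2-fold higher in pLB. TNFRSF11B, also named osteoprotegerin, a soluble receptor that can bind TRAIL, was at least 7.01-fold higher. TNFRSF6B, a soluble decoy for FAS ligand and TL1A, was 4.39-fold lower, and TNFRSF25, the TL1A receptor, was 2.27-fold lower. Of genes for proteins that bind TRAIL outside the cell, TNFRSF10A and TNFRSF11B were thus called, both higher in pLB, whereas TNFRSF10B and TNFRSF10C were not called.

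Of 16 tested adaptors and kinases, 2 were higher, 3 were lower and 11 were not called on their representative probes, although another TRAF2 probe was called lower (-1.54, adjusted p = 0.0018 by limma). TRAF3, which restrains noncanonical NF-kB signaling, was 4.62-fold higher, and PEA15, a death effector domain protein that binds FADD, was 2.33-fold higher. FAIM, an inhibitor of FAS-mediated apoptosis, was 2.87-fold lower, and TRAF5 was 2.58-fold lower. TRADD and RIPK1, which link TNFRSF1A to its signaling complexes, were 1.87-fold and 1.86-fold lower with adjusted p of 0.0013 and 0.003, and were not called at 2-fold. Both were singled out after their values were seen.

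Of 10 ubiquitin regulators, which set whether a TNF receptor complex signals to NF-kB or to death, 3 were higher and 2 lower, and a further probe of RBCK1 was called lower (-1.03, adjusted p = 0.014 by limma) where its representative probe was not. TNIP1 was 4.05-fold higher and TNFAIP3 (A20), which edits ubiquitin chains on RIPK1, 4.00-fold higher. CYLD, a deubiquitinase, was 4.02-fold lower and BIRC2 (cIAP1), a ubiquitin ligase, 2.19-fold lower.

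Of 12 caspases and substrates, 2 were higher, 1 was lower and 9 were not called on their representative probes, with a median log2 fold change of -0.40. Other probes of 3 of these 9 were called. They were a CASP10 probe (lower, given above), a pair of CYCS (cytochrome c) probes at 3.84-fold and 4.80-fold higher (adjusted p = 0.00044 and 0.00033 by limma) and a PARP1 probe at 2.98-fold higher (adjusted p = 0.0056), while the representative CYCS probe differed by -0.38 (adjusted p = 0.2). BID, the BH3-only protein that caspase-8 cleaves, was 4.04-fold higher on its brighter probe. DFFA, the inhibitor of the caspase-activated DNase, was 3.62-fold higher, whereas DFFB, the nuclease itself, was 2.91-fold lower on its representative probe and was not called on another (-0.75, adjusted p = 0.019). Of 7 IAPs and IAP antagonists, none was higher, and XAF1, an antagonist of XIAP, was the 1 called lower, at least 3.53-fold. XIAP itself differed by -0.13 and was not called (adjusted p = 0.5).

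**Figure D5:**
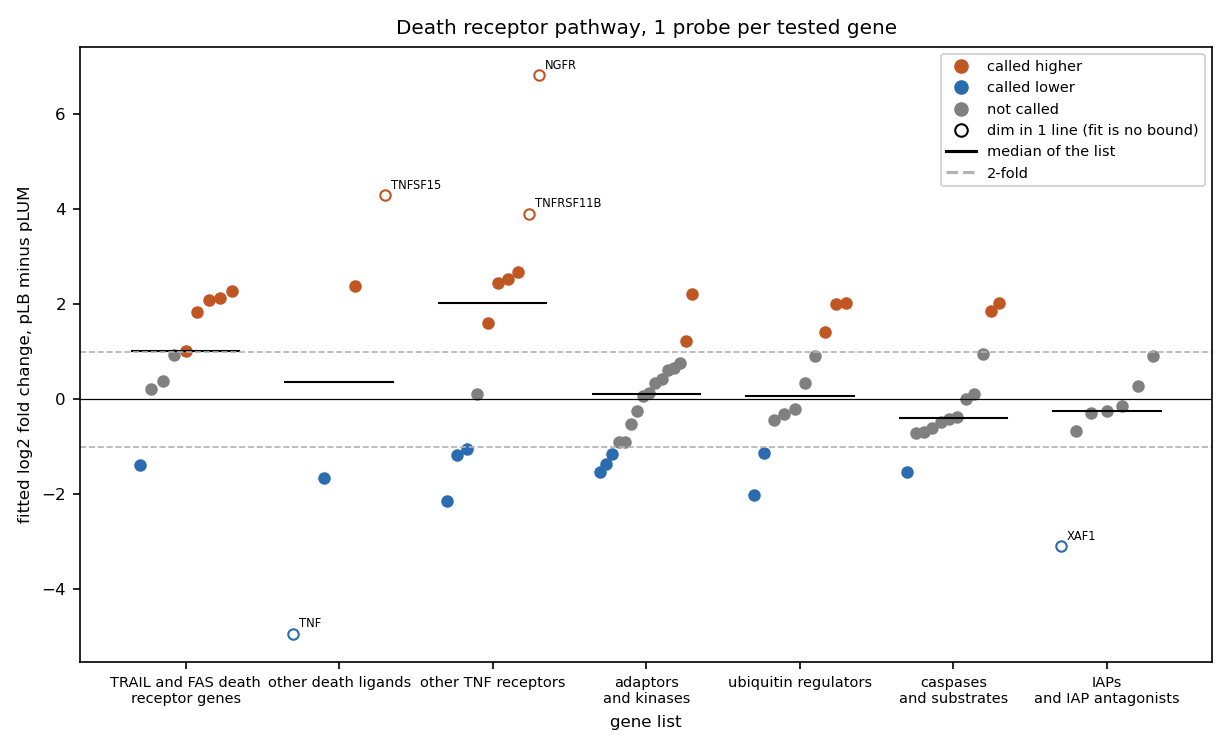
Fitted log2 fold change of pLB over pLUM for the representative probe of each tested gene, for the 9 TRAIL and FAS death receptor genes and for 6 lists of other pathway genes, with the median of each list as a line and dashed lines at 2-fold. Open circles mark genes well above background in 1 line only, whose fitted value is no bound. The TNF receptors and the genes on the left had medians of 2.01 and 1.02, and the other lists lay closer to 0.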

How the data were processed

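The authors deposited Agilent Feature Extraction 10.10.1.1 output for each of the 6 arrays, which gives for every spot an intensity on a linear scale, corrected for background within the array but not normalized between arrays, with flags for outliers and for signals well above background. Gene names and positions (hg19) are those of the files. Each deposited intensity was divided by the 75th percentile of its array and put on a log2 scale. Control spots and spots with an outlier flag (296 to 387 per array) were dropped before repeated spots were averaged. The difference between lines was fitted to all tested probes with lmFit and eBayes of limma 3.58.1 (R 4.3.3). Tested on simulated data for pLB against pLUM with 23105 probes, the fit recovered 60% of 50 probes changed 2.5-fold and 82% of 50 changed 4-fold, with 4 false calls. The simulation changed far fewer probes than were called here, and its errors were independent, without a slide effect. These values are therefore not the power or error rate of the real comparison. The arrays are separate sorts of 1 line each, so p-values measure only the spread between these samples, and their number limits the precision.

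The genes and lists were chosen with earlier results of these data known. Some items, among them the bases of 1 CFLAR probe, are not reported here. All probes of the 10 genes are named, and of each pathway list the 2 called genes with the largest change in each direction. Of the 64 listed genes, 63 were matched by symbol and 1 by transcript. A pair of TNFRSF10D and TNFRSF10B could not be formed because TNFRSF10D was not tested. Alternatives changed the background correction, the scaling, the filter on dim probes, the fold threshold, the test, the choice of probe or the block, or left out 1 array at a time.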

Additional observations from a re-analysis of the deposited data

How the results depend on the processing

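Over 255 values of the 14 tested probes under other settings, 235 stayed on the same side of the thresholds, 17 fell short of them, 3 newly passed and no called value changed sign. These values include the 5 probes that were not called, and a setting without the fold threshold, which leaves the fitted values as they were. The count of 235 therefore overstates how stable the calls were. Normexp background correction, which adds an offset of 50 intensity units, close to the signal of the dim probes, gave 3 member probes and 3 member genes called higher (against 7 and 5), 1 member probe called lower (against 2), and 2479 genes called higher in all (against 3865). The genes whose higher call was lost were TNFSF10 and CASP8. Of differences that were not called, those of TNFRSF10C (-0.12) and of FAS A_33_P3381127 (-0.11) changed sign with normexp, and that of CFLAR A_23_P209394 changed sign with scaling by spike-in probe (0.20) and with an array left out (0.04 at most). With the methods' t-test and Benjamini-Hochberg adjustment, 1 member probe and 0 member genes were called lower, whereas at its unadjusted threshold 5 genes were higher and 1 was lower. In limma, CFLAR had an unadjusted p of 0.0077. With the mean of a gene's probes, 0 member genes were called lower. With an array left out, 1 to 2 member probes and 0 to 1 member genes were called lower, the lowest without pLUM replicate 1 or without pLB replicate 2.

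Scaling by the 5 spike-in probes that were bright on all arrays, which was chosen after seeing the data because the median of all spike-in spots falls between a pair of concentrations, moved the median of all tested genes from 0.03 to 0.28 (log2) and that with normexp was -0.20. Scaling by spike-in probe kept all calls of the 10 genes, and gave 19 higher and 8 lower pathway genes (70.4% higher, against 55.6%). Calls over all tested genes moved the same way, to 4577 higher and 3124 lower, against 3865 and 3950 as reported. The change in the pathway counts is therefore not particular to the pathway. Deviations of arrays with the same replicate number correlated at -0.27, -0.09 and -0.22, so the numbers were not taken as pairs. With the replicate number as a block, 5 member genes were called higher and 1 lower, and 15 pathway genes higher and 12 lower.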
